A study of Mus musculus with 15 samples.

Results

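Serine, one-carbon and ATF4 stress genes were followed in microglia of mice given ATV:4D9, an antibody against mouse TREM2. The 10 genes were fixed by name: Phgdh, Psat1 and Psph of serine synthesis, Shmt2 and Mthfd2 of the mitochondrial folate pathway, the cystine transporter Slc7a11, the asparagine synthetase Asns, and the regulators Atf4, Ddit3 and Trib3. The choice was made with earlier results of these data known. They are 10 of the 32372 genes in the deposited matrix, and all 10 passed the filter on low counts that left 14260 genes for testing. Single-cell RNA sequencing was run on cells enriched with CD45 beads from the cortex and hippocampus of 15 male mice aged 3.5 months on the C57BL/6J background. All mice were hTfR KI by the labels, a line the paper names TfRmu/hu, in which the mouse transferrin receptor gene was given the human sequence of its apical domain. The transport vehicle (ATV) crosses into the brain by binding that human domain and does not bind the mouse receptor. Each mouse received 1 dose of 10 mg/kg. The control was ATV:RSV, an antibody on the same vehicle whose antigen-binding arms have no target in the mouse, sampled at day 1. Its vehicle can bind the transferrin receptor of these mice, as that of ATV:4D9 does. ATV:4D9 was sampled at days 1, 7, 14 and 28, with 3 mice in each of the 5 groups. Controls were sampled at day 1 only, so later days were compared with day 1 controls and time since dosing alone cannot be told apart from the antibody at those days. The labels give each mouse a batch from 1 to 3, each batch holds 1 mouse of every group, and the replicate numbers used here are the batch numbers.

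In the serine pathway, Phgdh oxidizes a glycolytic intermediate, Psat1 transaminates the product and Psph removes its phosphate to give serine. Shmt2 moves a carbon from serine onto folate in mitochondria and Mthfd2 oxidizes it towards formate, which the cytosol uses for purines and thymidylate. ATF4 is a transcription factor whose protein is made from a pre-existing mRNA when eIF2 is phosphorylated, so its mRNA level and its activity need not move together. Its known targets include these enzymes, Asns and Slc7a11 as well as Ddit3, which encodes the pro-apoptotic factor CHOP, and Trib3, a pseudokinase that restrains ATF4 and AKT. Slc7a11 is also a known target of NRF2, the factor of the oxidative stress response.

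Binding sites that ATF4 shares with C/EBP partners read TGATGNAA, or TTNCATCA on the other strand. Letters of this form were looked for in the RefSeq promoters (GRCm38.p6, 250 bases before to 50 bases after each annotated start), of which 3.97% of 32851 held at least 1 match. The windows of 3 of the 10 genes held one, namely Asns, Slc7a11 and Trib3, and those stretches are shown because they carry the letters by which this factor is known to bind. The capitals mark the match, and each line runs 5′ to 3′ on the minus strand, which carries all 3 genes.
Asns, chr6:7693214-7693243, bases 34 to 5 before the start: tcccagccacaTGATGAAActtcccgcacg
Slc7a11, chr3:50443614-50443693, the 80 bases before the start: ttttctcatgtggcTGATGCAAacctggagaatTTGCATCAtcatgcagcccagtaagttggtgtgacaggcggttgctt
Trib3, chr2:152344029-152344058, bases 3 to 32 after the start: attagctcaggtTTACATCAgccgggcggg
Slc7a11 held 2 matches, on opposite strands and 66 and 47 bases before the start. The Trib3 match began 15 bases after the RefSeq start but lies upstream of the Trib3 gene as GENCODE M21 draws it, and the Asns match began 23 bases before the RefSeq start but lies within the Asns gene as GENCODE M21 draws it. The windows of Phgdh, Psat1, Psph, Shmt2, Mthfd2, Atf4 and Ddit3 held none, which says only that these letters are not in these 300 bases. The core of the antioxidant response element bound by NRF2, TGACNNNGC or GCNNNGTCA, was in 12.4% of promoters and in the windows of Phgdh, Psph and Asns.

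In mm10 with GENCODE M21, all 10 genes are protein coding. Phgdh lies at chr3:98313170-98339990, Psat1 at chr19:15904678-15947337, Psph at chr5:129765558-129787449, Shmt2 at chr10:127517123-127522444 and Mthfd2 at chr6:83305691-83325908, all on the minus strand. Slc7a11 (chr3:49892526-50443614), Asns (chr6:7675169-7693254) and Trib3 (chr2:152337422-152344032) are on the minus strand as well, and Atf4 (chr15:80255184-80257541) and Ddit3 (chr10:127290774-127296288) on the plus strand. Reads of the 3′ kit come from the ends of these transcripts.

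The matrix held 102043 cells and 32341960 to 70307384 UMIs per mouse, so that the members' counts ran from 0 UMIs (Trib3) to 20234 UMIs (Phgdh) in a mouse. The 3 mice of ATV:4D9 day 1 were deeper, with medians of 8202 to 8996 UMIs per cell against 4975 to 5750 in ATV:RSV. Their median share of mitochondrial UMIs was at least 3.96% in each, against at most 3.38% in ATV:RSV, and its part in the day 1 differences was not tested. Cells with a UMI of Mki67 or Top2a, which mark the cell cycle, made up 19.6% to 27.4% of cells in these 3 mice and 0.397% to 0.684% in ATV:RSV. At day 1, 9872 of 14260 genes were called, 4942 higher and 4930 lower, so a call alone separates few genes from the rest. The split depends on scaling: it was 3690 higher and 6959 lower with library size alone, where the median gene moved to -0.29 on the log2 scale, and 7037 higher and 1908 lower per cell, where it moved to 0.32. Levels are in CPM, the UMIs of a gene per 1000000 UMIs counted. The 10 microglia markers, P2ry12 and Cx3cr1 among them, were all detected and summed to 23632 to 25214 CPM (without TMM) in ATV:RSV and 17537 to 19290 at day 1, where 2 were called higher and 7 lower. No 2 mice shared more than 27 cell barcodes. Levels below are CPM after scaling of the library sizes by the trimmed mean of M values (TMM), given as the mean ± SD of 3 mice, except where CPM without TMM is named.

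At day 1 of ATV:4D9 the serine and folate enzymes, Asns and Slc7a11 were higher than in ATV:RSV, while Atf4 mRNA fell in CPM. Of the 10 genes, 7 were called higher and 1 lower than in ATV:RSV, where 34.7% of all genes tested were called higher and 34.6% lower, 69.2% in all. Every day 1 mouse lay above every ATV:RSV mouse for 8 of the 10 genes and below for Atf4, against 35.7% and 35.9% of all genes tested. The 7 genes that rose were each at least 2-fold higher, against 12.8% of all genes tested, and the median log2 fold change of the 10 genes was 1.95, against -0.05 for all genes. Because the 10 genes were chosen with earlier results of these data known, these shares describe the list and do not test it. Calls are from limma-voom with Benjamini-Hochberg adjusted p-values over all genes tested, at 0.05.

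**Figure D1:**
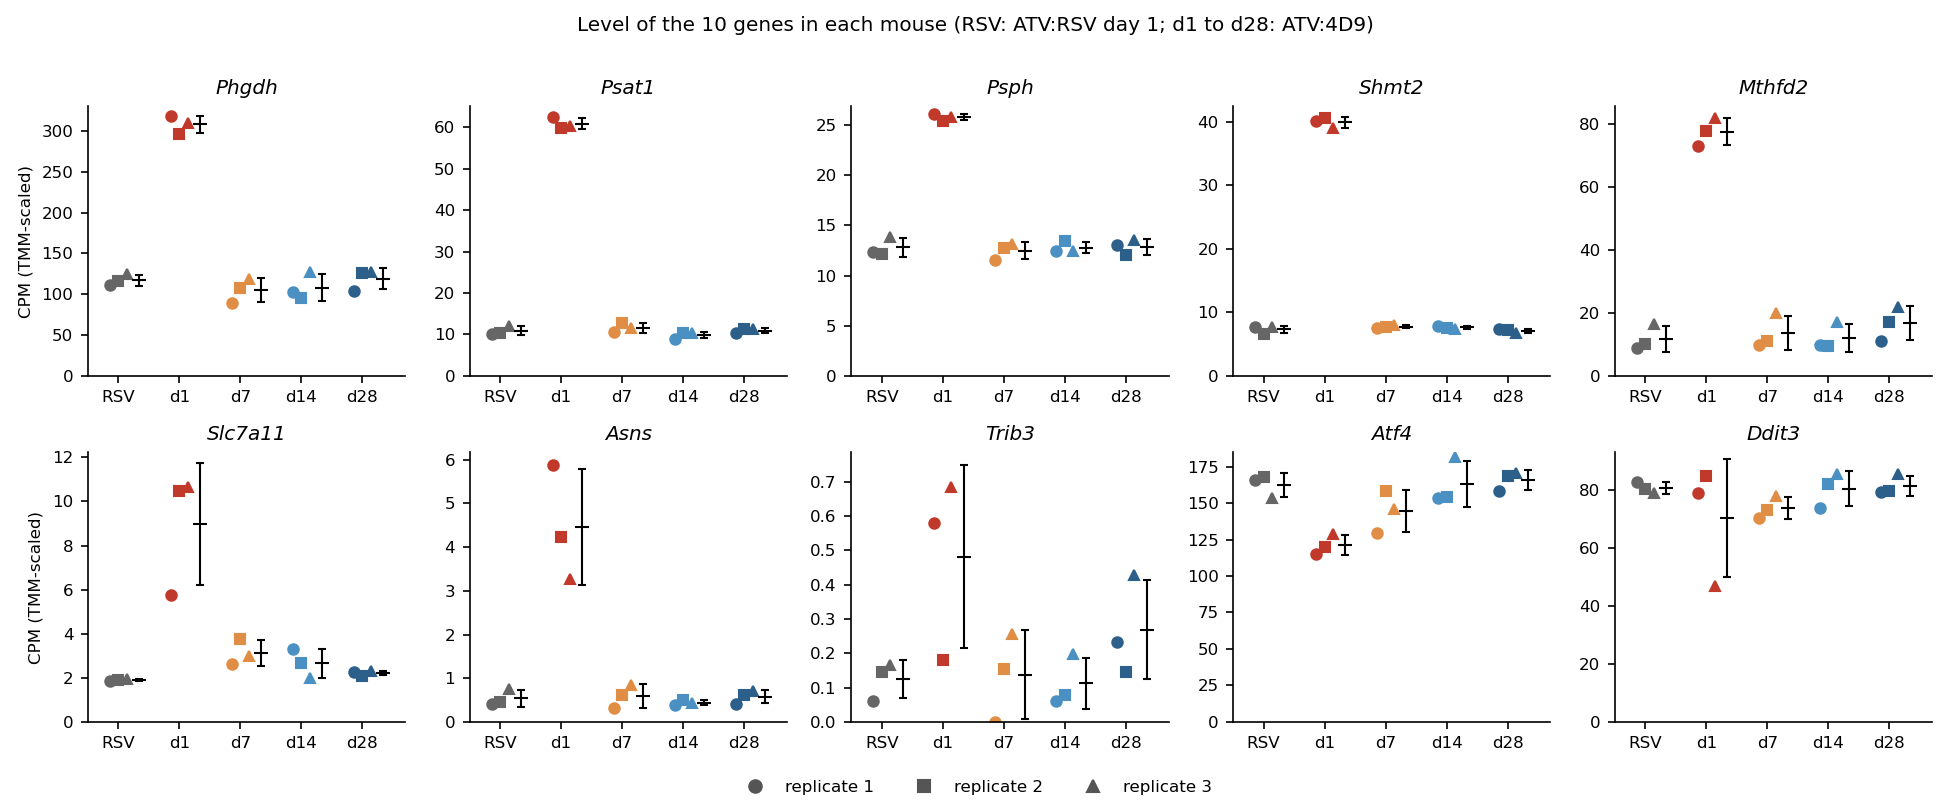
Level of each gene in every mouse, in CPM after TMM scaling, on linear axes that start at 0. Symbols are mice by replicate number, black bars are the mean ± SD of 3 mice, and for 7 genes from Phgdh to Asns every ATV:4D9 day 1 mouse lies above the mice of the other 4 groups.

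Phgdh, the enzyme that opens the serine pathway, stood at 111, 116 and 125 CPM in the 3 ATV:RSV mice and at 318, 297 and 309 in the ATV:4D9 day 1 mice. The groups were far apart: 117 ± 6.7 against 308 ± 10.7 (SD, n = 3 mice each), a log2 fold change of 1.39 ± 0.11 (SE), with an adjusted p of 1.2e-08 by limma-voom. These values rest on 4795 to 5453 Phgdh UMIs per ATV:RSV mouse and on 14465 to 20234 per ATV:4D9 day 1 mouse.

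Psat1, the aminotransferase of the second step, rose more steeply from a lower level. It was at 10.1, 10.4 and 12.1 CPM in ATV:RSV and at 62.4, 60.0 and 60.4 at day 1 of ATV:4D9. The mean was 5.61 times that of ATV:RSV, with a log2 fold change of 2.50 ± 0.08 (SE), with an adjusted p of 3.6e-13 by limma-voom. Psph, the phosphatase that releases serine, went from 12.3, 12.2 and 13.9 to 26.2, 25.5 and 25.8 CPM. That was 2.02 times the ATV:RSV mean (1.02 ± 0.06 SE on the log2 scale, limma-voom adjusted p = 1.2e-09), the smallest rise of the 3 enzymes. The gene Cct6a overlaps Psph on the opposite strand.

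The mitochondrial folate enzymes rose as well. Shmt2 stood at 7.61, 6.59 and 7.68 CPM in ATV:RSV and at 40.1, 40.6 and 39.0 at day 1, 5.47 times as high (2.45 ± 0.06 SE on the log2 scale, limma-voom adjusted p = 6.3e-14). The 3 treated mice lay close together, at 39.9 ± 0.832 (SD). Mthfd2, which is high in embryonic and dividing cells, was at 8.89, 9.99 and 16.5 in ATV:RSV and at 73.0, 77.6 and 81.7 at day 1. Its mean rose 6.57 times, with a log2 fold change of 2.78 ± 0.27 (SE), with an adjusted p of 1.7e-07 by limma-voom. Mthfd2 was highest in the batch 3 mouse of each of the 5 groups, and within the 3 batches the day 1 difference was 3.03, 2.95 and 2.31 on the log2 scale.

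The genes of amino acid supply were low in count and varied more among mice. Asns, which makes asparagine from aspartate and glutamine, had 20, 19 and 32 UMIs in the ATV:RSV mice and 375, 259 and 153 in the ATV:4D9 day 1 mice. In CPM that was 0.409, 0.458 and 0.764 against 5.89, 4.23 and 3.27, with no overlap. The mean was 8.21 times as high and the log2 fold change 3.07 ± 0.35 (SE), with an adjusted p of 1.2e-06 by limma-voom, the largest of the 10 genes. Slc7a11, the exchanger that imports cystine for glutathione, was at 1.86, 1.88 and 1.96 CPM in ATV:RSV and at 5.77, 10.5 and 10.6 at day 1. Its log2 fold change was 2.15 ± 0.28 (SE), with an adjusted p of 5.5e-06 by limma-voom, with the batch 1 mouse well below the other 2. Asns was highest in that same mouse, so the 2 genes did not rank the treated mice alike.

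Of the 3 regulators, Atf4 was called and Ddit3 and Trib3 were not. Atf4 was at 166, 168 and 153 CPM in ATV:RSV and at 115, 120 and 129 at day 1, where every treated mouse was below every control. The log2 fold change was -0.42 ± 0.08 (SE), with an adjusted p of 0.00015 by limma-voom. This fall is in CPM. Over all cells of a mouse, Atf4 had 1.06 ± 0.087 UMIs per cell in ATV:RSV and 1.01 ± 0.016 at day 1 (SD, n = 3). With the number of cells as library size its log2 fold change was -0.06 (limma-voom adjusted p = 0.58). The 7 genes that rose did so on both scales, from 2.59 times (Psph) to 10.7 times (Asns) the ATV:RSV level in UMIs per cell.

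Ddit3, the mRNA of CHOP, was not called at day 1. It stood at 83.1, 80.5 and 79.0 CPM in ATV:RSV and at 79.2, 85.1 and 47.0 in the ATV:4D9 day 1 mice, so that 1 treated mouse lay above, 1 within and 1 far below the controls. The log2 fold change was -0.24 (95% interval -0.56 to 0.08, limma-voom adjusted p = 0.164). Without the day 1 mouse of batch 3 it was 0.03 (adjusted p = 0.754), and without the day 1 mouse of batch 2 it was -0.39 (adjusted p = 0.026). Ddit3 was also called lower with library size alone (-0.48, adjusted p = 0.012). Mars, on the opposite strand, and a second gene model of the same symbol overlap Ddit3 in GENCODE M21.

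Trib3 was near the limit of detection. It had 3, 6 and 7 UMIs in the ATV:RSV mice and 37, 11 and 32 at day 1, or 0.061, 0.145 and 0.167 against 0.581, 0.180 and 0.684 CPM. All 3 treated mice were above the controls, the batch 2 mouse by little. The log2 fold change of 1.74 ± 0.77 (SE) was not called (limma-voom adjusted p = 0.055). With the batch as replicate block it was called (log2 fold change 1.72, adjusted p = 0.024), as it was without the batch 2 mouse of day 1 (2.36, adjusted p = 0.0069), by edgeR (1.94, adjusted p = 0.019), by DESeq2 (1.98, adjusted p = 0.015), with the number of cells as library size (2.09, adjusted p = 0.015) and without the cells with a Mki67 or Top2a UMI (1.89, adjusted p = 0.043).

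**Figure D2:**
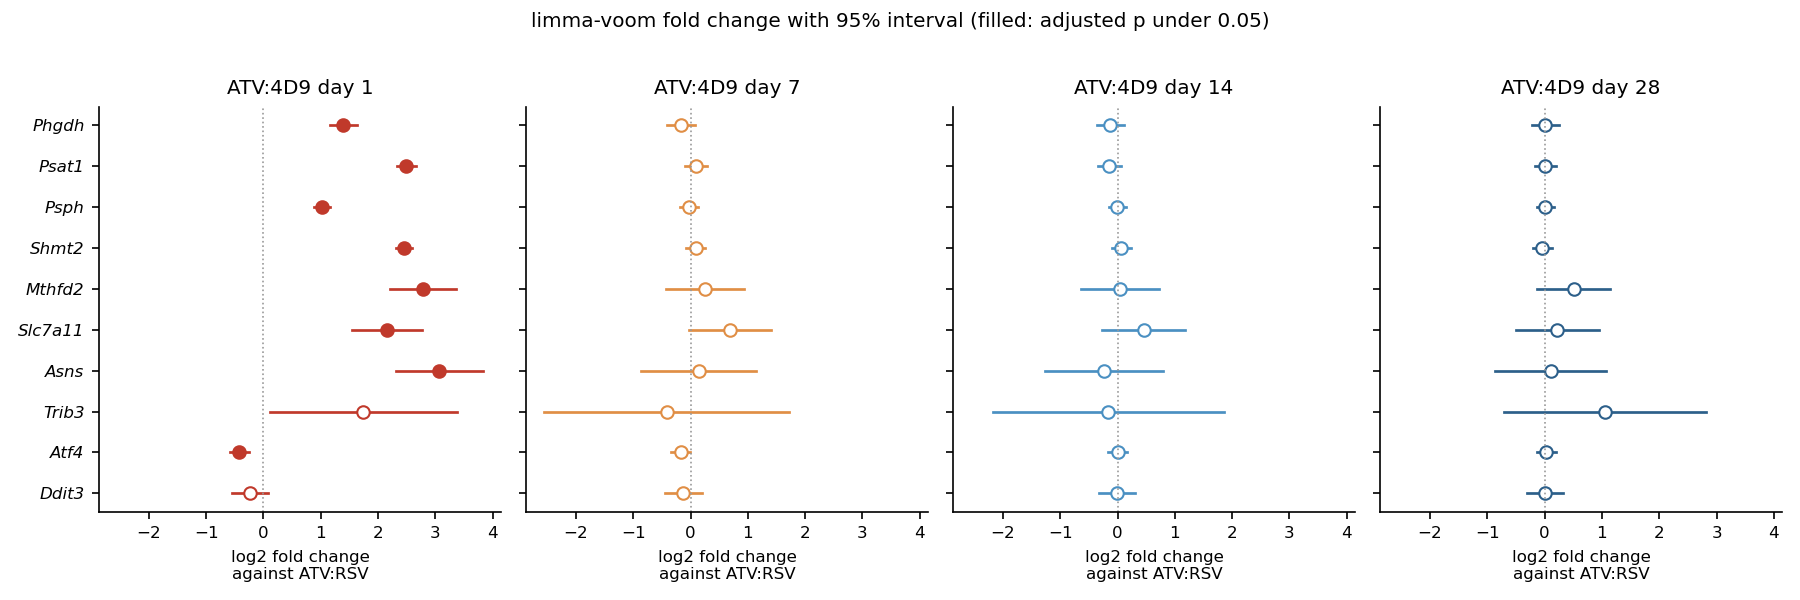
limma-voom log2 fold change of each gene against ATV:RSV at days 1, 7, 14 and 28 of ATV:4D9, with lines for the 95% interval and filled points for an adjusted p under 0.05. At day 1, 8 points are filled, 7 to the right of 0 and Atf4 to the left, and at days 7, 14 and 28 none is.

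Phgdh and other serine enzymes are also abundant in astrocytes, so markers of other brain cells were read beside them. The 8 astrocyte markers, Aqp4 and Slc1a2 among them, summed to 222 to 273 CPM (without TMM) in ATV:RSV and to 117 to 122 at day 1, where 1 of the 8 was called lower and none higher. Phgdh stood at 110 to 124 CPM (without TMM) in the cells of the ATV:RSV mice with no UMI of any astrocyte marker, and at 274 to 296 in such cells at day 1. Of other markers, 6 of 6 of oligodendrocytes and 5 of 6 of neurons were called lower at day 1 and none higher, with sums of 48.4 to 65.6 and at least 9.01 CPM (without TMM) in ATV:RSV and 29.2 to 32.3 and at most 6.43 at day 1. Of 6 markers of border-associated macrophages 3 were called higher and none lower, with sums of 15.9 to 18.8 CPM (without TMM) in ATV:RSV and 16.5 to 23.9 at day 1. The 4 monocyte markers summed to 4.39 to 11.2 CPM (without TMM) in ATV:RSV and to 13.3 to 17.6 at day 1, where 1 of the 3 tested was called higher and 1 lower. The 1 tested marker of oligodendrocyte precursors was called higher, with sums of at most 0.202 CPM (without TMM) in ATV:RSV and at most 0.839 at day 1. Endothelial markers summed to 19.7 to 26.4 CPM (without TMM) in ATV:RSV and 9.01 to 14.1 at day 1, where 1 of 5 was called higher and 1 lower. B cell markers summed to 29.1 to 36.1 CPM (without TMM) in ATV:RSV and 22.1 to 24.2 at day 1, where 1 of the 2 tested was called lower. Neutrophil markers summed to 3.16 to 9.01 CPM (without TMM) in ATV:RSV and to at most 6.95 at day 1. At day 7 they ran from 3.22 to 116 over the mice, with none of the 3 tested called. The part of these cells in the members' levels, or in the calls at day 7, was not tested. Immediate early genes that tissue dissociation can induce were read beside Atf4 and Ddit3: of 15, Jun and Jund among them, 9 were lower and 1 higher at day 1 (5 and 4 with the number of cells as library size), where 34.6% of all genes tested were lower and 34.7% higher, and their part in the Atf4 level was not tested.

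Single cells showed how widely each gene was detected. To remove the depth gap, each cell was thinned to 3385 UMIs and the 10204 shallower cells were left out, 3.93% to 5.79% of cells in the day 1 mice and 8.69% to 17.8% in ATV:RSV. Phgdh then had a UMI in 32.8% ± 0.782 of ATV:RSV cells and 56.8% ± 1.33 of day 1 cells (SD, n = 3), or 46.4% and 80.6% unthinned. Mthfd2 rose from 3.82% ± 1.28 to 18.9% ± 1.21 of cells, Psat1 from 3.67% ± 0.339 to 15.4% ± 0.398 and Shmt2 from 2.56% ± 0.050 to 10.9% ± 0.099. Atf4 went the other way, from 41.4% ± 2.11 to 30.0% ± 1.37 of cells at equal depth, although 55.1% and 55.8% of cells had a UMI unthinned. These are descriptions with no test, and the files hold no cell type that should lack the genes and could serve as background.

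Detection of pairs of genes in the same cells was compared within the day 1 mice. In the 3 mice, Psat1 had a UMI in 16.4%, 16.6% and 16.0% of cells with a Phgdh UMI and in 14.8%, 12.8% and 14.8% of cells without one, at 3385 UMIs per cell. Shmt2 showed 11.7%, 11.2% and 11.3% against 9.55%, 10.7% and 10.5%. In cells with and without a Psat1 UMI, Shmt2 had one in 11.2% to 13.9% against 10.4% to 10.9%, and Mthfd2 in 18.5%, 20.9% and 23.6% against 17.5%, 18.6% and 19.4%. In each day 1 mouse the second gene was in a larger share of the cells with the first for all 6 pairs read among Phgdh, Psat1, Shmt2 and Mthfd2. In ATV:RSV, Shmt2 was in 2.58%, 2.50% and 2.29% of cells with a Phgdh UMI and in 2.62%, 2.51% and 2.71% of those without. Of the other 5 pairs in ATV:RSV, Phgdh with Psat1 (3.64% to 4.06% against 3.17% to 4.02%) and Shmt2 with Mthfd2 (4.19%, 4.29% and 8.84% against 2.79%, 3.34% and 5.17%) were higher in all 3 mice, and 3 pairs differed in direction between mice. Atf4 had a UMI in 37.3%, 39.6% and 39.6% of day 1 cells with a Ddit3 UMI and in 26.7%, 27.9% and 30.2% of those without. In ATV:RSV the shares were 50.1%, 50.2% and 47.7% against 38.9%, 41.5% and 37.0%. Phgdh had a UMI in a smaller share of day 1 cells with a Ddit3 UMI than without in all 3 mice (55.8%, 54.8% and 53.3% against 58.9%, 56.5% and 56.3%). In ATV:RSV that share was larger in 2 of 3 mice (34.7%, 32.7% and 35.7% against 31.2%, 33.1% and 33.0%). Asns had one in 1.02%, 0.900% and 0.847% of day 1 cells with an Atf4 UMI and in 1.70%, 1.21% and 0.747% of those without, lower in 2 of 3 mice, and in ATV:RSV it was lower in all 3 (0.151%, 0.124% and 0.267% against 0.266%, 0.222% and 0.316%). Cells of a mouse are not replicates, and no test was made over them.

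Slc7a11 had more UMIs per positive cell than Asns at day 1. At day 1 the cells with any Slc7a11 UMI held 1.77, 2.06 and 2.13 UMIs each on average in the 3 mice, and up to 17, 22 and 19 in a single cell. In ATV:RSV these averages were 1.15, 1.08 and 1.06, with at most 4 in a cell. Asns, which was detected in 325, 233 and 139 cells at day 1 against 207, 312 and 233 for Slc7a11, held 1.15, 1.11 and 1.10 UMIs in each and at most 4. Cells with 5 or more Slc7a11 UMIs, a limit chosen after the counts were seen, numbered 13, 28 and 25 in the day 1 mice and 0 in each ATV:RSV mouse. They held 30.5%, 38.6% and 41.9% of that mouse's Slc7a11 UMIs. With them left out, Slc7a11 was still at 3.64, 5.84 and 5.46 CPM of the remaining cells, against 1.96 to 2.07 in ATV:RSV, both without TMM.

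**Figure D3:**
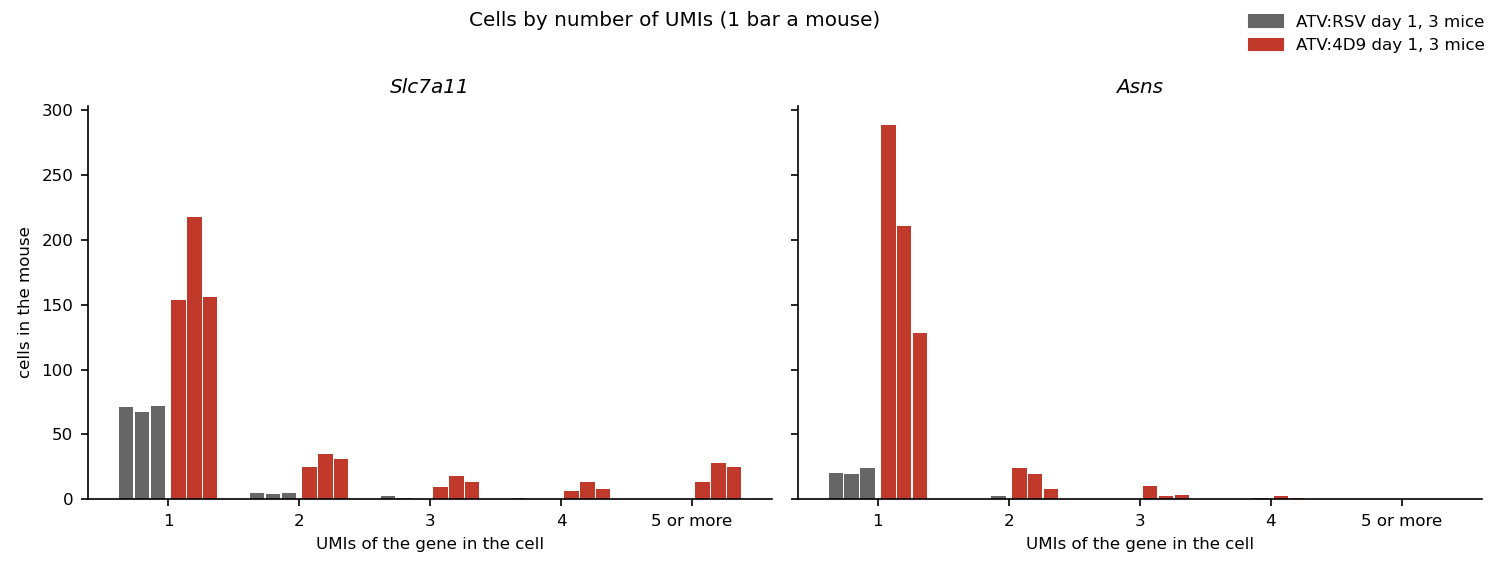
Number of cells in each mouse that hold 1, 2, 3, 4, or 5 or more UMIs of Slc7a11 or Asns, with 1 bar a mouse for 3 ATV:RSV and 3 ATV:4D9 day 1 mice. Slc7a11 has 13, 28 and 25 cells at 5 or more UMIs in the day 1 mice and none in ATV:RSV, while Asns has none in either group.

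The cells with 5 or more Slc7a11 UMIs at day 1 all lay in cluster 2. Their median depth of 13585 to 14447 UMIs was above that of the other day 1 cells (8174 to 8986). A Mki67 or Top2a UMI was in 3 of 13, 16 of 28 and 12 of 25 of them, and in 1395 of 7105, 1999 of 7315 and 1466 of 5973 of the other cells. With every cell thinned to 3385 UMIs, Slc7a11 still averaged 1.28, 1.43 and 1.42 UMIs per cell with a UMI at day 1, against 1.07, 1.06 and 1.06 in ATV:RSV. Srxn1, an NRF2 target that repairs peroxiredoxins, had 0, 13 and 8 UMIs in them, or 0.00, 33.3 and 22.4 CPM (without TMM) against 4.01, 5.01 and 4.90 in the remaining cells of the same mice. Txnrd1, the thioredoxin reductase that NRF2 also induces, stood at 40.9, 97.2 and 140 against 48.5, 62.6 and 56.3, higher in 2 of 3 mice. Nfe2l2, the gene of NRF2 itself, was higher in them in all 3 mice, at 307, 266 and 305 against 198, 225 and 211. Gclm, an NRF2 target of glutathione synthesis, was lower in all 3, at 25.5, 23.0 and 22.4 against 28.2, 28.8 and 30.2 on 5, 9 and 8 UMIs, and so was G6pdx, which supplies NADPH, at 15.3, 15.4 and 14.0 against 17.2, 16.7 and 16.7. Gsr, the glutathione reductase, was lower in 2 of 3 mice, at 5.11, 33.3 and 36.3 against 36.8, 39.2 and 35.4, and Nqo1 had no UMI in these cells and 5, 9 and 3 in the others. The other 7 genes of the 14 in the cystine, glutathione and NRF2 list, Hmox1 among them, went 1 way in 2 mice and the other way in 1. These comparisons rest on few cells of each mouse and were not tested.

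Ddit3 also had more cells of high count in 2 of the 3 treated mice. Cells with 5 or more Ddit3 UMIs numbered 187, 171 and 30 at day 1 and 72, 37 and 52 in ATV:RSV, and held 25.8%, 23.4% and 9.46% of its UMIs at day 1. The mouse with 30 such cells is the batch 3 mouse whose Ddit3 level was lowest. Thinned to 3385 UMIs, the averages per cell with a Ddit3 UMI were 1.39, 1.40 and 1.25 at day 1 and 1.28, 1.25 and 1.29 in ATV:RSV.

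The authors deposited 3 clusters of cells, numbered 0, 1 and 2, and cluster 2 held 18416 day 1 cells and 339 ATV:RSV cells. Clusters were built from the same counts, so their levels, in CPM of the cluster's own UMIs without TMM, are a description. In the day 1 mice, cluster 2 had the highest level of the 7 genes that rose: Shmt2 was at 36.8 ± 1.73 there and at 13.6 ± 2.58 in cluster 0, Mthfd2 at 71.8 ± 1.99 and 18.5 ± 3.59, and Psat1 at 56.3 ± 2.43 and 20.5 ± 3.39 (SD, n = 3 mice). Asns had 782 UMIs in cluster 2 at day 1 and 5 in the other 2 clusters together. In CPM, Asns was at 4.21 in cluster 2 and at 0.300 and 0.642 in clusters 0 and 1. Trib3 had 80 UMIs and 0, but clusters 0 and 1 held only 945 and 1098 of the day 1 cells. At its cluster 2 level of 0.451 CPM few Trib3 UMIs would fall in them, so these counts cannot tell whether it was absent there.

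**Figure D4:**
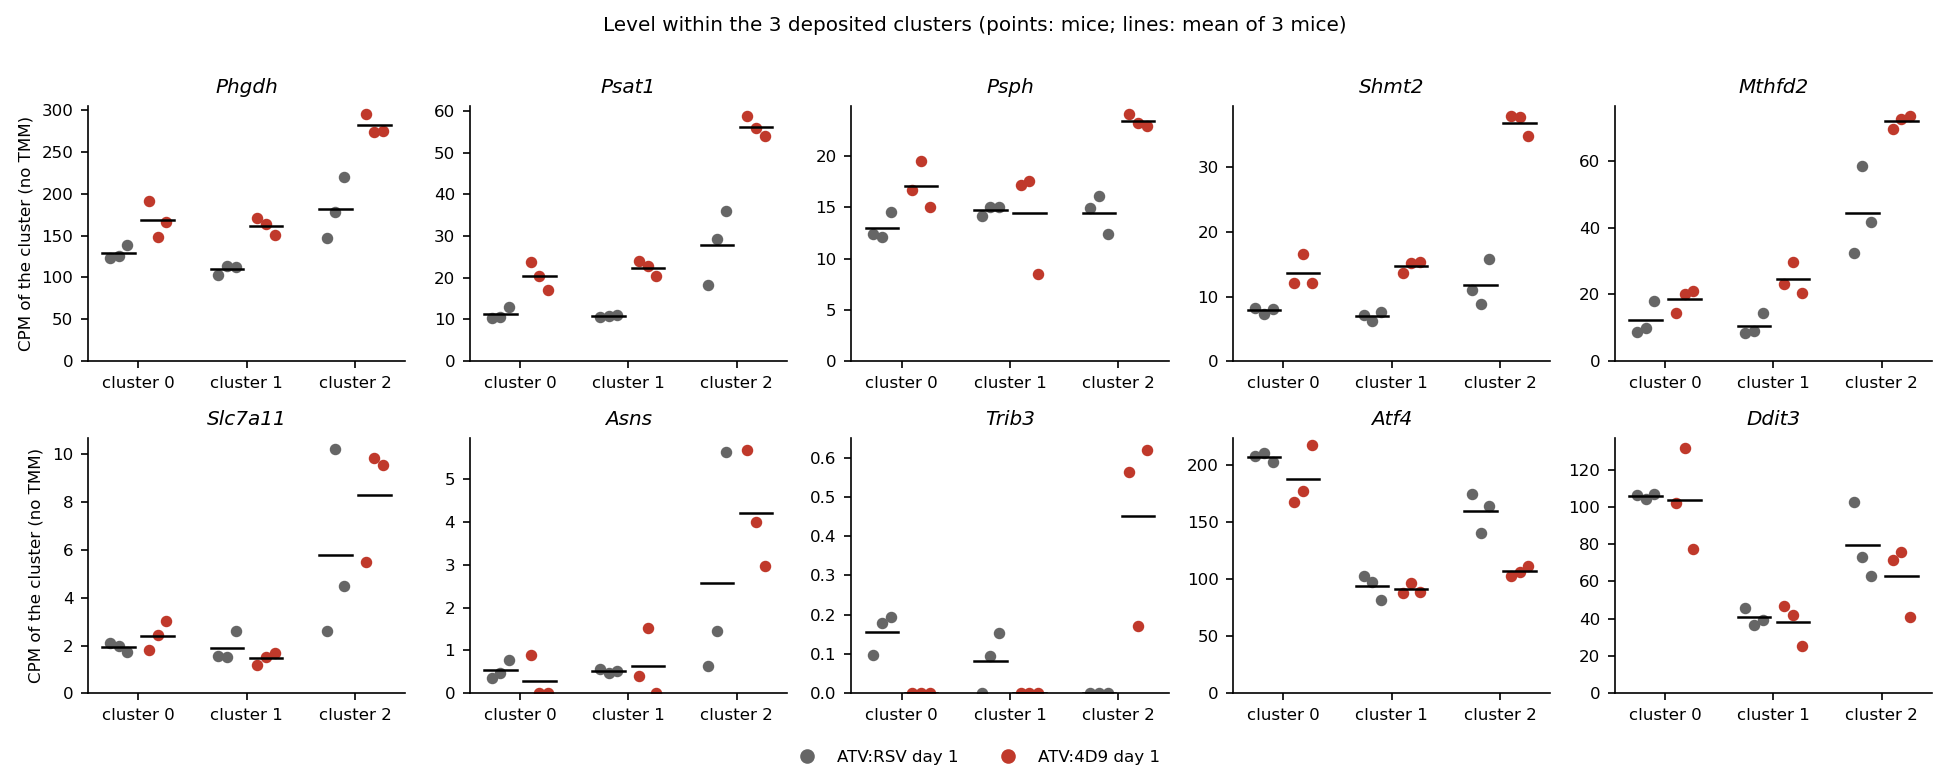
Level of each gene within clusters 0, 1 and 2 in ATV:RSV and ATV:4D9 day 1 mice, in CPM of the cluster's own UMIs, with points for mice and lines for the mean of 3. The means of Psat1, Shmt2, Mthfd2 and Phgdh stand higher at day 1 in all 3 clusters, with Mthfd2 overlapping between the groups in cluster 0, while Atf4 is lower at day 1 in cluster 2 and overlaps between the groups in cluster 1.

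The enzymes were also higher at day 1 in the cells of cluster 1. In cluster 1, Phgdh went from 110 ± 6.11 in ATV:RSV to 162 ± 10.4, Psat1 from 10.9 ± 0.242 to 22.4 ± 1.79, Shmt2 from 7.01 ± 0.704 to 14.7 ± 0.995 and Mthfd2 from 10.7 ± 3.39 to 24.5 ± 4.77. In these 4 genes no day 1 mouse overlapped an ATV:RSV mouse in cluster 1. Psph showed no such shift there, at 14.8 ± 0.507 against 14.4 ± 5.10, and Slc7a11 was at 1.89 ± 0.608 against 1.48 ± 0.257. The few ATV:RSV cells in cluster 2, 76 to 165 a mouse, already held more Mthfd2 than their cluster 0 (44.2 ± 13.2 against 12.3 ± 5.09) and more Psat1 (27.8 ± 8.98 against 11.3 ± 1.41), on 127 and 80 UMIs in all.

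Atf4 and Ddit3 differed between clusters 0 and 1 in every group. In ATV:RSV, Atf4 was at 207 ± 3.82 in cluster 0 and 94.1 ± 10.7 in cluster 1, and Ddit3 at 106 ± 1.39 and 40.7 ± 4.69. At day 28 the levels were 208 ± 10.3 and 93.5 ± 2.52 for Atf4 and 104 ± 3.24 and 42.0 ± 1.70 for Ddit3. Within cluster 0 the day 1 level of Atf4 was 187 ± 26.1 and overlapped ATV:RSV, while in cluster 2 it was 107 ± 4.25 against 160 ± 17.4, without overlap. Cluster 0 held 17431 Atf4 UMIs in 11364 ATV:RSV cells and 952 in 945 day 1 cells. Cluster 1 held 3555 in 8598 and 399 in 1098, and cluster 2 held 510 in 339 and 19345 in 18416. Pooled over mice, Atf4 UMIs per cell were thus lower at day 1 within each cluster. The part of the shift between clusters in the level over all cells was not tested.

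Cells with a Mki67 or Top2a UMI held more of the serine and folate enzymes in each day 1 mouse. In CPM without TMM, Mthfd2 was 1.44, 1.39 and 1.38 times as high in them as in the other cells of the same mouse, Psat1 1.38, 1.38 and 1.54 times, Shmt2 1.33, 1.35 and 1.46 times, and Phgdh 1.16, 1.21 and 1.28 times. Slc7a11 was 1.18, 1.73 and 2.32 times as high, while Asns was at 1.21, 0.704 and 0.971 times, higher in 1 of 3 mice. Psph differed least of the serine and folate enzymes, by 1.07, 1.09 and 1.03 times, and Ddit3 was lower in the cycling cells of all 3 mice (0.866, 0.852 and 0.744 times). The cells with such a UMI were deeper, with medians of 10314 to 11379 UMIs against 7588 to 8418, so that a cell without one may still be cycling, and the part of cycling in the day 1 levels was not tested. Without the cells that had one, the limma-voom log2 fold change was 2.33 for Shmt2, 2.36 for Psat1, 2.67 for Mthfd2 and 1.33 for Phgdh, and all 7 genes were called.

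From day 7 on, none of the 10 genes differed from the controls by the test. None was called against ATV:RSV at day 7, when 3.98% of all genes tested were, none at day 14 (0.400%), and none at day 28 (0.00%). Over all genes at day 28, 571 passed an unadjusted p of 0.05, edgeR called 0 and DESeq2 14. Atf4 at day 7 had the lowest adjusted p of the 10 (-0.17, limma-voom adjusted p = 0.288), and its 95% interval was -0.33 to -0.0049. The log2 fold changes ran from -0.42 (Trib3) to 0.69 (Slc7a11) at day 7, from -0.24 (Asns) to 0.46 (Slc7a11) at day 14, and from -0.04 (Shmt2) to 1.05 (Trib3) at day 28. The 95% intervals at day 7 were narrow for Shmt2 (-0.08 to 0.26) and Psat1 (-0.10 to 0.29) and wide for Asns (-0.86 to 1.15) and Trib3 (-2.55 to 1.72).

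Slc7a11 stood at 2.63, 3.76 and 2.97 CPM at day 7, at 3.30, 2.67 and 1.98 at day 14, and at 2.26, 2.10 and 2.30 at day 28, and all 9 of these mice lay above the highest ATV:RSV mouse (1.96). By comparison, 11.0%, 5.29% and 4.59% of all genes tested had their 3 mice of that day above every ATV:RSV mouse. These shares are for each day alone. The 3 days are set against the same 3 controls, at 1.86 to 1.96 CPM, so they are not separate support. The lowest treated mouse, at 1.98, was above them by little. The order depends on scaling: in UMIs per cell the lowest day 14 mouse, at 0.0126, lay below the highest ATV:RSV mouse, at 0.0130. The differences did not pass the test (limma-voom log2 fold change 0.69 with adjusted p = 0.329 at day 7, 0.46 and 0.22 at days 14 and 28), and DESeq2 called Slc7a11 at day 7 (0.72, adjusted p = 0.045). Mthfd2 at day 28 was at 11.2, 17.0 and 21.8 against 8.89, 9.99 and 16.5 in ATV:RSV, and the difference was positive within each batch (0.33, 0.76 and 0.41 on the log2 scale) but not called (0.51 ± 0.30 SE).

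The fall after day 1 was itself called. Against day 1, 8 of the 10 genes were lower at day 7 and Atf4 was higher, where 33.9% of all genes tested were called lower and 33.0% higher (66.9% in all). Shmt2 dropped by 2.36 on the log2 scale, Asns by 2.93 and Phgdh by 1.56, and Slc7a11 by 1.47 (limma-voom adjusted p = 9.1e-05). Atf4 rose by 0.25 (adjusted p = 0.0092), from 121 ± 6.82 to 145 ± 14.6 CPM, but per cell it was lower at day 7 (-0.21, adjusted p = 0.049), and it was not called without the batch 1 mouse of day 1 (0.20, adjusted p = 0.054) or the batch 2 mouse of day 7 (0.19, adjusted p = 0.058). The Trib3 call (-2.16, adjusted p = 0.036) was lost without the batch 1 mouse of day 7, which had 0 Trib3 UMIs (-0.91, adjusted p = 0.24), and without the batch 1 or batch 3 mouse of day 1 (adjusted p = 0.089 and 0.084), as well as with only the 2 groups in the fit (adjusted p = 0.056). At day 14 against day 1, 8 of the genes were lower and Atf4 higher, and at day 28 against day 1, 7 were lower and Atf4 higher, where 68.7% and 69.8% of all genes tested were called.

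In a moderated F test over the 5 groups, 66.5% of all genes tested were called, and with them Shmt2, Psat1, Psph, Phgdh, Mthfd2, Asns, Slc7a11 and Atf4 but not Trib3 or Ddit3 (limma-voom adjusted p = 0.106 and 0.459). Trib3 was called in this test with the replicate block (adjusted p = 0.049), by edgeR (0.044), by DESeq2 (0.023), with the number of cells as library size (0.021), and without the batch 2 mouse of day 1 (0.019) or the batch 3 mouse of day 7 (0.043). The order of levels was the same in kind for the 7 genes that rose: ATV:4D9 day 1 stood first, apart from all other groups, and no pair among ATV:RSV and ATV:4D9 days 7, 14 and 28 was called for any of the 10 genes. Over all genes tested, 0.912% were called between days 14 and 7, 2.13% between days 28 and 7, and 0.00% between days 28 and 14, where 338 passed an unadjusted p of 0.05 and DESeq2 called 70. Atf4 was lowest at day 1, then at day 7 (145 ± 14.6), and days 1 and 7 differed by the test. ATV:RSV, day 14 and day 28 lay between 162 and 166 CPM, with no pair among them or with day 7 called.

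Related lists were read at day 1 in the same samples, and were chosen with earlier results of these data known. Their counts stand against 34.7% of all genes tested called higher, 34.6% lower and 69.2% in all, and against a median of -0.05. Of 20 other serine and one-carbon genes tested, 12 were higher and 2 lower, with a median log2 fold change of 0.46, and the share called was near that of all genes. Shmt1, the cytosolic counterpart of Shmt2, rose from 2.13 ± 0.087 to 13.7 ± 0.377 CPM (log2 fold change 2.68), and Mthfd1l, which makes mitochondrial formate, by 1.76. Mtr, the methionine synthase (-0.38), and Srr, which makes D-serine (-0.57), were lower relative to the larger total of the day 1 cells. With the number of cells as library size they were at -0.03 and -0.22 and not called (limma-voom adjusted p = 0.856 and 0.196), and 16 of the 20 genes were higher and none lower. With library size alone, 10 of the 20 were higher and 3 lower. The users of the carbon units rose without exception: all 10 of 10 genes of thymidylate and purine synthesis were higher, with a median of 1.45. Tyms, the thymidylate synthase, rose by 2.78 on the log2 scale, from 11.9 ± 0.873 to 82.2 ± 6.99 CPM. Of 9 methionine cycle and transsulfuration genes, 5 were higher and 2 lower, with Ahcy (2.93), which hydrolyses S-adenosylhomocysteine, at the top and Ahcyl2 (-0.61) and Mat2b (-0.49) at the bottom. Per cell, Ahcyl2 was at -0.25 and still called and Mat2b at -0.13 and not (limma-voom adjusted p = 0.026 and 0.30).

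**Figure D5:**
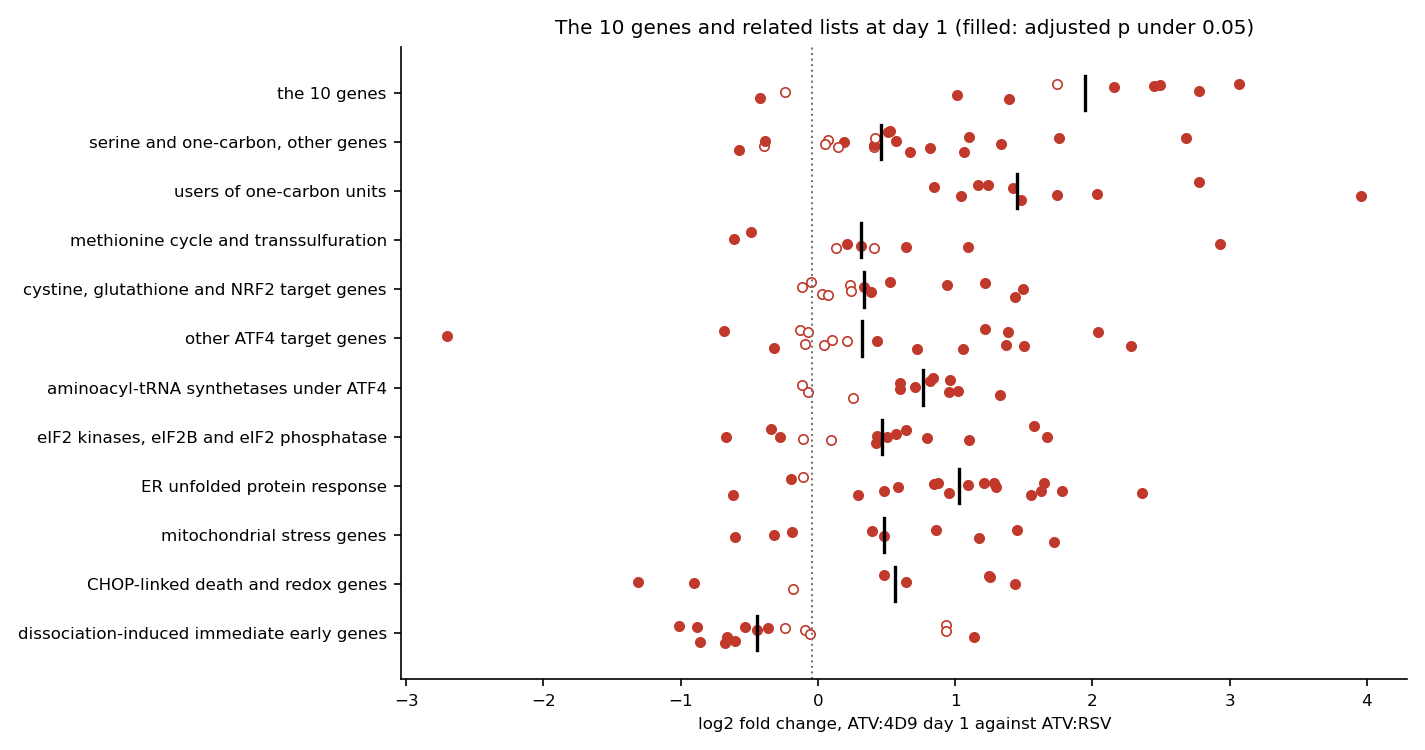
log2 fold change at day 1 against ATV:RSV of the 10 genes and of the genes of 11 related lists, with 1 point a gene, filled at an adjusted p under 0.05. Black lines are list medians, the dotted line is the median of all 14260 genes, and the points are shifted at random in height.

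Of 18 ATF4 targets outside the 10 genes, 9 were higher, 3 lower and 6 not called, with a median of 0.32, so that the share called was near that of all genes tested (69.2%). With the number of cells as library size 15 were higher and 2 lower, and with library size alone 8 were higher and 6 lower. The amino acid transporters Slc1a5 (2.28) and Slc7a1 (2.04) rose most, while Ddit4, an inhibitor of mTORC1, fell from 34.1 ± 14.8 to 4.92 ± 0.272 CPM (-2.70) and Cebpg, a partner of ATF4, fell by 0.69. Of 12 aminoacyl-tRNA synthetases, 9 were higher and none lower, with Gars (1.33) and Lars (1.02) first. In the cystine, glutathione and NRF2 list, 7 of 13 genes were higher and none lower, with Srxn1 (1.50) and Gsr (1.44) first. With library size alone, 2 of the synthetases and 3 genes of the latter list were lower. With the number of cells as library size, all 12 synthetases and all 13 genes of the latter list were higher.

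Against the same 34.7% higher and 34.6% lower of all genes tested, the eIF2 list, upstream of Atf4, held 9 higher and 3 lower of 14. That split moved to 8 higher and 5 lower with library size alone, and to 11 higher and none lower with the number of cells as library size. The eIF2 subunit gene Eif2s1 (1.67) and the double-stranded RNA sensor kinase Eif2ak2 (1.57) rose, and Eif2ak3, the kinase PERK (-0.34), and Impact (-0.67), which restrains another eIF2 kinase, were lower. Neither was called with the number of cells as library size, where they were at 0.01 and -0.31 (limma-voom adjusted p = 0.916 and 0.075). The endoplasmic reticulum list, of the ATF6 and IRE1 arms, held 15 higher and 2 lower of 18, with a median of 1.02. Sdf2l1 rose from 161 ± 5.28 to 835 ± 142 CPM (2.36) and Creld2 by 1.78, whereas the sensors Ern1 (-0.62) and Atf6 (-0.20) were lower. Per cell, Atf6 turned to 0.16 and Ern1 was at -0.25, neither called (limma-voom adjusted p = 0.104 and 0.051). Among 9 mitochondrial stress genes 6 were higher, led by the chaperonins Hspd1 (1.72) and Hspe1 (1.45), and 3 were lower, with Dele1 (-0.60) and Oma1 (-0.32), which relay mitochondrial stress to eIF2, the lowest. Per cell, Oma1 turned to 0.04 and was not called (limma-voom adjusted p = 0.735), while Dele1 was at -0.24 (adjusted p = 0.044). Of 8 genes linked to CHOP, 5 were higher, Tnfrsf10b (1.44) and the oxidase Ero1l (1.25) most, and 2 lower, Gadd45a (-1.31) and Bcl2l11 (-0.90), the latter encoding pro-apoptotic BIM. The 5 included anti-apoptotic Bcl2 (1.25), and CHOP activity was not tested. Tnfrsf10b was scarce, at 0.432 ± 0.051 CPM at day 1 against 0.198 ± 0.158 in ATV:RSV. In the immediate early list, Ier3 rose by 1.14 and Jund and Jun fell by 1.01 and 0.88.

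At day 7, where 3.98% of all genes tested were called, 4 genes of these lists were, a share of the lists' genes no larger than that of all genes. Bbc3 and Pmaip1, which encode the pro-apoptotic proteins PUMA and NOXA, were higher than in ATV:RSV (log2 fold change 0.56 for each, adjusted p = 0.00077 and 0.0059), with Bbc3 at 34.3 ± 4.36 against 23.3 ± 0.817 CPM. Gclm was lower (-0.25, adjusted p = 0.019), and so was Jun (-0.25, adjusted p = 0.041), all by limma-voom. No other gene of the lists was called at day 7, and none at day 14 or day 28.

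Across the 15 mice, the genes whose log2 levels followed each member most closely were listed as a description. Pearson's r has no p here, because the day 1 mice stand apart from the others in most genes. Shmt2 ran closest with Impdh2 (r = 0.998), the rate-limiting enzyme of guanine nucleotide synthesis, then Pa2g4 and Eif3b (0.997 each). Phgdh ran with Aldh18a1 of proline synthesis, Tma16 and Srm (0.990 each), Mthfd2 with Slc7a1 (0.994), 3110082I17Rik (0.991) and Ltv1 (0.988), Psat1 with Tedc2 (0.997), Dsn1 (0.996) and Flna (0.995), and Psph with Stoml2, Idh3a and Prdx2 (0.996 each). Asns ran with Prmt7 (0.986), Ormdl1 and Alg5 (0.980 each), and Slc7a11 with Tpm4 (0.970), Dna2 and Nol7 (0.967 each). Atf4 ran with Arl4d (0.973), Sertad1 (0.960) and Cdk5r1 (0.957). The closest to Ddit3 were Nrp1 (0.904), Gclc (0.895) and Zfp322a (0.851), and to Trib3, at a few UMIs a mouse, Gm16286 (0.895), Pym1 (0.887) and Nudt6 (0.882).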

How the data were processed

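Cells were enriched with CD45 beads and sequenced with the 10x 3′ v3 kit. Reads were counted with Cell Ranger 4.0.0 on mm10 per the submitters' processing notes, while the paper's methods name later versions of that tool, and clusters were made by the authors in Seurat. The deposited matrix holds UMI counts, and the deposited cell table gives each cell's mouse, its cluster and the percent of mitochondrial UMIs. The filters on cells and the handling of doublets are not given in the sources used here, all deposited cells were kept and no doublet caller was run.

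Counts were summed per mouse and fitted over the 15 mice by limma-voom, the test the study used (R 4.3.3 with limma 3.58.1 and edgeR 4.0.16), after TMM scaling and edgeR's filter (count minimum 10, total minimum 15), with Benjamini-Hochberg adjustment over 14260 genes and a threshold of 0.05. The filter uses the groups, so a gene high in 1 group alone can pass. Mice are the replicates, and p-values measure the spread between them. The steps were tested on simulated data. Alternatives were library size alone, DESeq2 size factors, cell number as library size, no filter, only the 2 groups compared, the batch as replicate block, edgeR, DESeq2 1.42.0, no cells with a Mki67 or Top2a UMI, and each mouse left out. Gene lists at day 1 were also read with library size alone and with cell number, an alternative chosen after seeing the data. Replicate numbers pair mice because the labels give them as batches. Deviations from group means correlated by 0.054 on average in same-batch pairs (-0.22 to 0.26, 30 pairs) and -0.027 in others (60 pairs). The labels mention a further control animal, which is not analysed here.

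The 10 genes and all lists were chosen with earlier results of these data known. Named genes are the 10 members, the 2 highest and 2 lowest called genes of each list, and the 3 genes most correlated with each member. Some items that this rule names are not reported here. Genes described in the cells of high Slc7a11 count were chosen after their values were seen. Intervals and shares of cells cover these libraries alone.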

Additional observations from a re-analysis of the deposited data

Results flagged for a closer look

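Levels differed between the ATV:4D9 mice of day 1 and of day 7 for 9 of the 10 genes. The limma-voom test of day 7 against day 1 gave these calls, and it called 66.9% of all genes tested. No controls were sampled at day 7, so time since dosing and the antibody cannot be told apart here. The calls of Atf4 and Trib3 did not hold under every alternative. On the log2 scale, day 7 minus day 1 was -2.93 for Asns, -2.52 for Mthfd2, -2.40 for Psat1, -2.36 for Shmt2, -2.16 for Trib3, -1.56 for Phgdh, -1.47 for Slc7a11, -1.04 for Psph and 0.25 for Atf4. Ddit3 differed by 0.11 (adjusted p = 0.536) and was not called. No outlier test was run on groups of 3 mice.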

How the results depend on the processing

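The calls of Phgdh, Psat1, Psph, Shmt2, Mthfd2, Asns and Slc7a11 at day 1, and at day 7 against day 1, held under every alternative run. At day 7 the count of called genes was 568, and 1199 with library size alone, 308 with cell number, 1014 with the replicate block, 871 with DESeq2 and 331 to 489 with a mouse left out. At day 14 it was 57, and 19 with library size alone, 0 with cell number, 122 with the replicate block, 132 with DESeq2, 0 with only the 2 groups and 0 to 52 with a mouse left out. At day 28 it was 0, and 2 with the replicate block and 14 with DESeq2. Day 14 against day 7 gave 130, and 86 with library size alone, 11 with cell number, 241 with DESeq2 and 31 to 81 with a mouse left out, fewest without the batch 2 mouse of day 14. Day 28 against day 14 gave 0, and 13 with no filter, 19 with the replicate block and 70 with DESeq2. With a mouse left out, day 1 gave 9287 to 9549 genes, day 7 against day 1 gave 8910 to 9227 and the F test 8773 to 9592. Of the 10 genes, 8 to 10 were then called at day 1 and 7 to 9 at day 7 against day 1. The replicate block changed no call among the 10 genes but those of Trib3 at day 1 (adjusted p = 0.024) and in the F test (adjusted p = 0.049), and DESeq2 called 1 of the 10, Slc7a11, at day 7.

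Signs turned with cell number as library size for Ddit3 at day 1 (0.12), and for Atf4 (-0.21) and Ddit3 (-0.35) at day 7 against day 1. With a mouse left out, Ddit3 ran from -0.39 to 0.025 at day 1 and from -0.16 to 0.26 at day 7 against day 1. At day 7 against ATV:RSV, where limma-voom called none of the 10 genes, signs turned for Trib3 (0.28 by edgeR, 0.22 by DESeq2), Shmt2 (-0.0071 with library size alone, -0.0092 with cell number) and Psat1 (-0.00075 with cell number). With a mouse left out, values there ran from -1.38 to 0.84 for Trib3, from -0.24 to 0.52 for Asns, from -0.12 to 0.52 for Mthfd2 and from -0.078 to 0.031 for Psph. The causes were not tested. Trib3 and Asns rest on few UMIs, which limits their precision.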
